A study of Mus musculus with 20 samples.

Results

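Ptprc encodes CD45, the receptor tyrosine phosphatase present on the surface of nearly all nucleated blood cells. It was followed here as 1 of the 37620 genes in the deposited gene table, and through its 165 junctions among the 554616 splice junctions in the deposited junction table. The members were chosen by gene name alone: the gene's own count row and every junction that lies within it, above all those that join exons 3 to 7. Of the 165 junctions, 81 join splice sites annotated for the gene and carried 99.75% of its junction reads, whereas 84 have 1 or no annotated site.

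The samples were bulk bone marrow cells of 20 recipient mice in 4 groups of 5. All mice had received marrow from donors that carry rtTA and a doxycycline-inducible U2AF1 transgene, either U2AF1(WT) or U2AF1(S34F), had engrafted for more than 6 weeks, and had eaten doxycycline chow (625 ppm) for 7 days. Veh_WT and Veh_MUT mice received vehicle, and Sud_WT and Sud_MUT mice received sudemycin D6, a splicing modulator that binds the SF3B1 protein, by intravenous infusion on the last 5 of these days, so transgene, chow and catheter were common to every group, controls included. Donor marrow was pooled from several mice, the recipients were irradiated congenic wild-type mice, donor and recipient differ in their Ptprc alleles, and the counts do not separate reads of the donor's allele from those of remaining host cells. The authors describe giving pooled marrow to several recipients per genotype, so recipients of a genotype may share a donor pool. Which pool each mouse received is not given in the labels. Differences between pools and between genotypes cannot be told apart. The age of the mice is not given in the labels.

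CD45 switches on Src family kinases by removing an inhibitory phosphate, and it can also restrain Janus kinases. Its extracellular end is varied by alternative splicing of exons 4, 5 and 6, also named A, B and C, so that a transcript with none of them is called RO, one with exon 5 alone RB, and one with all of them RABC. The RABC form is the B220 antigen of B cells, myeloid cells mostly skip the variable exons, and T cells move towards RO when activated. The proteins best known for silencing these exons are hnRNP L and its relative hnRNPLL, which bind CA-rich RNA. U2AF1 recognises the AG at the 3′ end of an intron, and the S34F change is known to alter which base it prefers just before that AG.

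The 3′ splice sites of the exons concerned are shown because both the transgene and the drug act on this step of splicing. Each line gives 20 bases of intron and 3 bases of exon, 5′ to 3′ on the minus strand of mm9, with the base just before the AG (position -3 of the intron) in capitals.
Exon 4, chr1:140019159-140019181: tccatccattaacataaCagaac
Exon 5, chr1:140016741-140016763: atctcactttctaacctCaggtg
Exon 6, chr1:140014469-140014491: ggtgacccttctgattgCaggtg
Exon 7, chr1:140013600-140013622: ttttgttcatttccttgCaggtg
Exon 8, chr1:140012217-140012239: ttttttaatctcaattaCagcta
All these sites held C before the AG. Over the 32 annotated 3′ splice sites of Ptprc, 20 held C and 12 held T, and none held A or G. Over the 67687 annotated sites of the genome examined, C stood at 59.39%, T at 33.37%, A at 6.72% and G at 0.52%. The pyrimidines among the 17 intron bases before position -3 numbered 10 at exons 4 and 6, 13 at exon 5 and 14 at exon 7.

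The exons themselves are shown because CA-rich letters within them are the background for their silencing. Every overlapping match to CACA on the transcript strand is in capitals.
Exon 4 (A), 129 bases, chr1:140019033-140019161: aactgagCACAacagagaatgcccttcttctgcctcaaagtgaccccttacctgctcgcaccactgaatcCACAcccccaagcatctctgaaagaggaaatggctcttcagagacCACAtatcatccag
Exon 5 (B), 147 bases, chr1:140016597-140016743: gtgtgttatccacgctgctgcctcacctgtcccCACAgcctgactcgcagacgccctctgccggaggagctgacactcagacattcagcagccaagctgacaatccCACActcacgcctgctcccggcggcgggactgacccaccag
Exon 6 (C), 141 bases, chr1:140014331-140014471: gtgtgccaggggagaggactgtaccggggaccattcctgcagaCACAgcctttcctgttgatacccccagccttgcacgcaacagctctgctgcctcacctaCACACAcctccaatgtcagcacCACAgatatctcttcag
Exon 7, 72 bases, chr1:140013531-140013602: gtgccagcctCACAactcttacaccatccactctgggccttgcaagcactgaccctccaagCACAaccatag
Exon 6 held 4 matches, a number reached by 0.78% of 4221 annotated internal exons whose length lay within 5 bases of its own. Exon 4 held 3 matches (reached by 3.92% of exons of like length), exon 5 held 2 (16.97%) and exon 7 held 2 (5.53%). These matches describe the letters and do not show binding. All of exons 3 to 8 are coding and their lengths are multiples of 3, so skipping any of them keeps the reading frame.

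**Figure D1:**
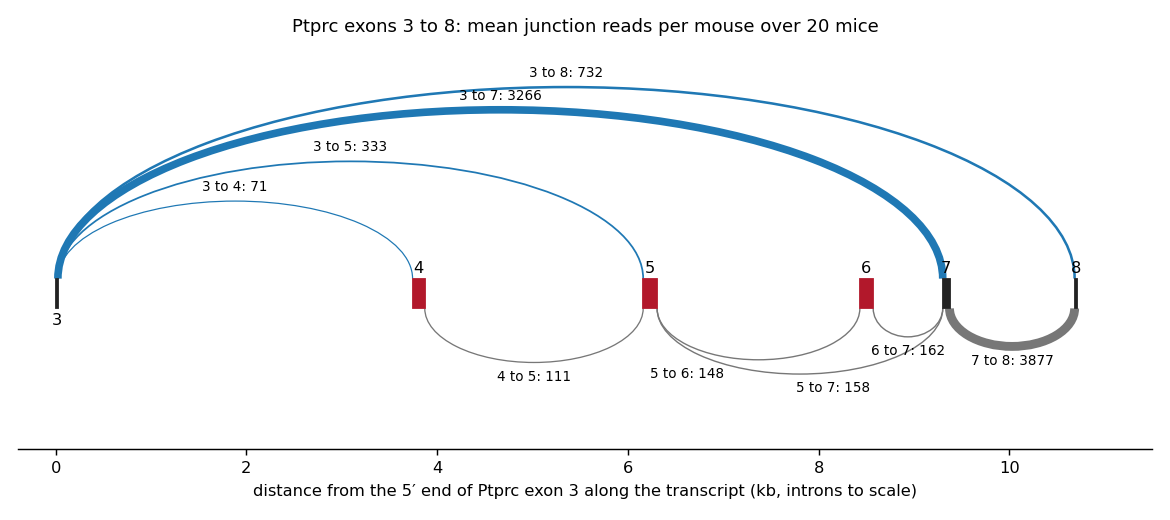
Map of Ptprc exons 3 to 8 drawn to scale in kb along the transcript, with arcs for the junctions that averaged at least 20 reads and the mean reads per mouse over 20 mice beside each arc. Exons 4 to 6 are red, arcs that leave exon 3 are blue and the others grey. The exon 3 to exon 7 junction averaged 3266 reads and the exon 3 to exon 8 junction 732, against 71 for exon 3 to exon 4.

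The gene tables held between 41145892 and 62138138 counts per mouse, and Ptprc junctions held between 83259 and 159899 reads per mouse. The WT and MUT recipients also differed in sex-linked transcripts: Xist ranged from 859 to 1585 CPM (gene counts scaled to library size by edgeR) in the 10 WT mice and from 0.020 to 0.146 in the 10 MUT mice, while the Y-linked Eif2s3y was at 0 in all WT mice and at 78.2 to 105.2 CPM in the MUT mice. This is the pattern of female marrow in WT and male marrow in MUT, although the labels do not give the sex. Every comparison of genotypes below therefore also compares mice that differ in sex by these transcripts, and genotype and sex cannot be told apart. In bulk marrow, fewer cells of a type and less RNA per cell cannot be told apart either.

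Ptprc was abundant in every mouse and ranked 49 of 37620 genes by mean CPM. Its level was 1260, 1251, 1310, 1288 and 1420 CPM in Veh_WT and 1139, 1222, 1559, 1122 and 1219 CPM in Sud_WT. It was 1478, 1358, 1494, 1588 and 1422 CPM in Veh_MUT and 1334, 1426, 1401, 1176 and 1523 CPM in Sud_MUT. The ranges of all 4 groups overlapped, with the highest mean in Veh_MUT (1468 ± 86.0 CPM, SD, n = 5) and the lowest in Sud_WT (1252 ± 177 CPM, SD, n = 5). In this order Sud_MUT (1372 ± 129 CPM) and Veh_WT (1306 ± 68.2 CPM) stood between them, and the values of each neighbouring pair of groups overlapped. By edgeR's quasi-likelihood test over all genes, the log2 fold change of Ptprc was 0.15 (SE 0.084, FDR 0.186) for Veh_MUT against Veh_WT, 0.10 (SE 0.114, FDR 0.568) for Sud_MUT against Sud_WT, -0.06 (SE 0.113, FDR 0.884) for Sud_WT against Veh_WT, -0.11 (SE 0.081, FDR 0.461) for Sud_MUT against Veh_MUT and 0.06 (SE 0.086, FDR 0.624) for Sud_MUT against Veh_WT. None passed FDR<10%, and the interaction of genotype with drug was -0.07 (FDR 0.958). For comparison, genes called higher made up 19.7%, 17.2%, 1.18%, 4.94% and 25.1% of those tested in these 5 comparisons in the same order, and genes called lower 19.8%, 19.6%, 1.89%, 5.85% and 25.1%.

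In this marrow most transcripts passed from exon 3 straight to exon 7. This junction took a mean of 74.0% of the reads leaving exon 3 in Veh_WT, 68.3% in Sud_WT, 78.6% in Veh_MUT and 74.3% in Sud_MUT. The second route, from exon 3 to exon 8, also leaves out exon 7 and took 15.8%, 20.7%, 12.2% and 18.05% in the same order. Exon 5 received 7.76%, 8.45%, 7.49% and 6.65%, and exon 4 received 2.12%, 2.39%, 1.32% and 0.81%. Direct joining of exon 3 to exon 6 stayed below 0.44% in every mouse, so exon 6 was reached mainly through exon 5.

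**Figure D2:**
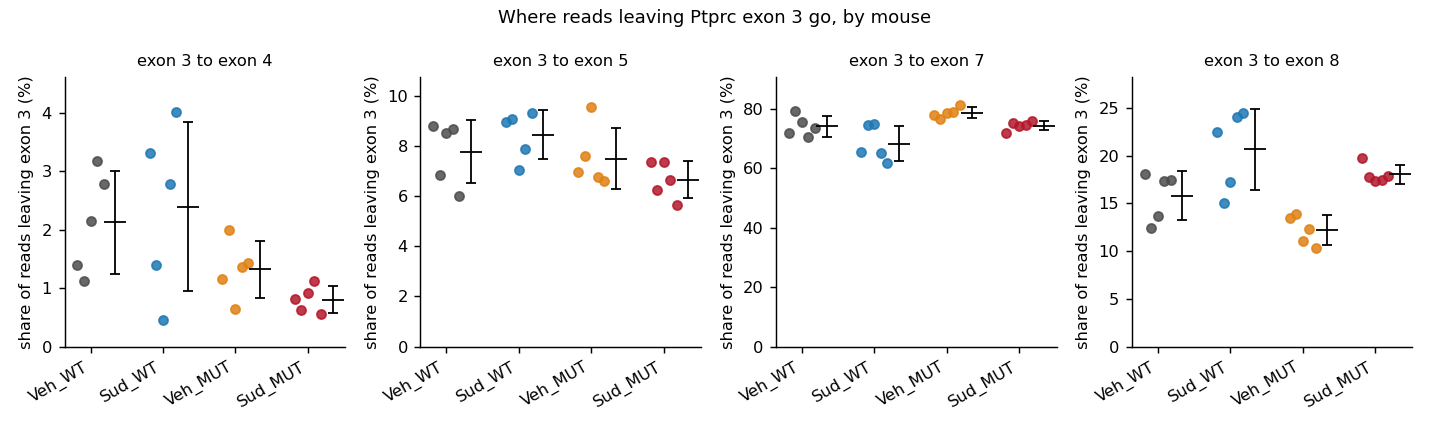
Share of the reads leaving Ptprc exon 3 (y axis, per cent) that went to exon 4, 5, 7 or 8, with a point for each mouse and the mean ± SD of the 5 mice of a group beside the points. For exon 3 to exon 8 the Sud_MUT mice lie between 17.3% and 19.7% and the Veh_MUT mice between 10.3% and 13.9%, without overlap.

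Inclusion of an exon, Ψ, was computed as the mean of the reads on its own 2 sides divided by that mean plus the reads that skip it. It was low for the variable exons and high for exon 7, and the other exons hardly varied: 25 of the 26 other internal exons of Ptprc with a value had a mean Ψ above 99% in every group, the exception being exon 11 with 98.8%, 99.1%, 98.2% and 98.5% in Veh_WT, Sud_WT, Veh_MUT and Sud_MUT. Behind each value stood 3247 to 5250 reads per mouse for exon 4, of which 78 to 334 were inclusion reads, and 5618 to 10221 reads for exon 7. A change was called at FDR<10% and a difference of more than 1 percentage point, by edgeR's quasi-likelihood test of inclusion against skipping reads over all annotated internal exons.

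**Figure D3:**
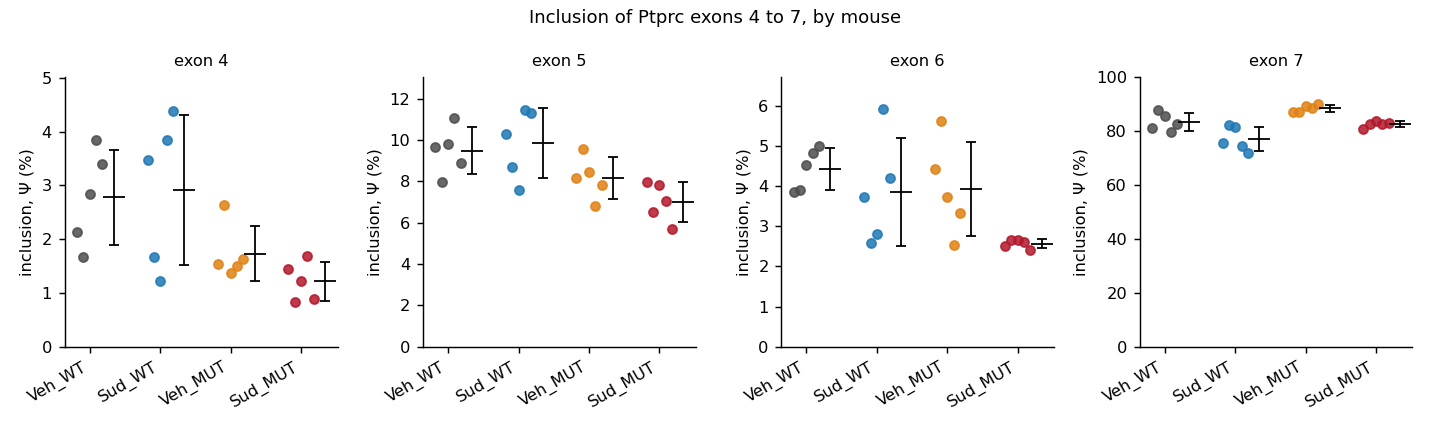
Inclusion of Ptprc exons 4 to 7 (y axis, Ψ in per cent, from 0) with a point for each mouse and the mean ± SD of 5 mice per group beside the points. Exon 7 lies between 87.2% and 90.1% in Veh_MUT and between 81.0% and 83.9% in Sud_MUT, while exon 6 in Sud_MUT spans only 2.42% to 2.66%.

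Sudemycin D6 was compared with vehicle in mice with the U2AF1(S34F) transgene to ask what the drug does in mutant marrow. Exon 7 was skipped more often after the drug. Its Ψ was 87.3, 87.2, 89.5, 88.5 and 90.1% in the Veh_MUT mice and 81.0, 82.5, 83.9, 82.6 and 83.1% in the Sud_MUT mice, and the groups did not overlap. The difference was -5.89 points (SE 0.75, FDR 1.11e-20 by edgeR), and an exact permutation test over the 10 mice gave p = 0.00794, the smallest value 5 against 5 allows. Exons 5 and 6 were called lower in the same comparison, with -1.16 points for exon 5 (8.17 ± 1.01% to 7.00 ± 0.96%, SD, FDR 0.049) and -1.36 points for exon 6 (3.93 ± 1.18% to 2.57 ± 0.10%, SD, FDR 6.28e-06). Exon 4 moved by -0.52 points, under the 1 point required (FDR 0.0255). In all, 3 of the 24 Ptprc exons tested were called, against 1.49% of all exons tested.

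The call for exon 7 held when each exon was given only its own spread between mice (FDR 0.0811) and in limma on Ψ (FDR 0.0492). It was lost in 1 model of all 20 mice (FDR 0.288) and with an estimated dispersion (FDR 0.548), a setting that called 0 of the 54285 exons tested. With exons 6 and 8 as flanks it turned to 0.11 points (FDR 0.476), a form in which the only skipping reads are those joining exon 6 to exon 8, 12 in Veh_MUT replicate 1 and 0 in the other 19 mice. The calls for exons 5 and 6 did not hold (FDR 0.283 for both with their own spread and 0.731 in limma). For exon 6, edgeR used a quasi-dispersion of 3.71 where its own was 16.8. Without Veh_MUT replicate 3, whose exon 6 Ψ of 5.64% was the highest of its group, the exon 6 difference was -0.93 points, under the 1 point required. The exon 5 call was also lost without Veh_MUT replicate 3, Veh_MUT replicate 5, Sud_MUT replicate 6 or Sud_MUT replicate 12, and over all 10 refits its difference lay between -1.51 and -0.81 points.

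The junctions on both sides of exon 7 were tested as well. Among reads leaving exon 3, the share going to exon 8 was 13.5, 13.9, 11.1, 12.3 and 10.3% in Veh_MUT and 19.7, 17.8, 17.3, 17.5 and 17.9% in Sud_MUT. It rose by 5.82 points (SE 0.82, FDR 1.61e-17), while the share going to exon 7 fell by 4.43 points (SE 1.06, FDR 1.36e-06). Both had an exact permutation p of 0.00794, and with the junctions' own spread the FDR was 0.122 and 0.278. Among reads entering exon 8, those from exon 7 fell from 89.5 ± 1.15% to 83.7 ± 1.08% (SD, FDR 2.64e-21; 0.0626 with its own spread) and those from exon 3 rose correspondingly. Among reads entering exon 7, those from exon 6 fell by 1.62 points (FDR 0.0078; 0.279 with its own spread), which was not called without Veh_MUT replicate 3 (-0.91 points). These were 2 of 58 junctions tested by a shared 5′ site and 3 of 55 tested by a shared 3′ site, against 1.13% and 1.03% of all junctions.

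The same drug comparison in mice with the U2AF1(WT) transgene gave a difference of like size for exon 7 and more spread between mice. Exon 7 Ψ was 81.2, 88.0, 85.7, 79.8 and 82.8% in Veh_WT and 75.5, 82.4, 81.5, 74.4 and 71.8% in Sud_WT, so the groups overlapped. The difference was -6.40 points (SE 2.55) with an FDR of 0.569 in edgeR and an exact permutation p of 0.0556. Exons 4, 5 and 6 differed by 0.14, 0.39 and -0.57 points, each less than 1 SE. No exon of the 30 tested was called, nor any of 45 and 46 junctions, against 0.705% of all exons and 0.694% and 0.513% of all junctions. At an unadjusted p under 0.05 there were 3 exons, 2 junctions by 5′ site and 3 by 3′ site, and limma called none. The exon 7 result was not stable: with all 10 mice edgeR used a quasi-dispersion of 44.6 and made no call, whereas leaving out any single mouse gave a call in 10 of 10 refits, with differences between -7.72 and -5.06 points and FDR up to 8.69e-05. The junctions from exon 3 to exon 7 and to exon 8 were likewise called in 10 of 10 refits and not with all mice (-7.39 to -4.10 and 3.93 to 6.28 points). The test of the difference between the drug effects in the 2 genotypes, an interaction fitted by edgeR over all 20 mice, gave 0.51 points for exon 7 (FDR 1), and none of the 30 Ptprc exons was called (3 at an unadjusted p under 0.05, none by limma).

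Sud_MUT was next compared with Veh_WT, which joins the effects of drug and mutation. Here the variable exons were lower and exon 7 was not. Exon 4 Ψ was 2.14, 1.67, 2.83, 3.85 and 3.39% in Veh_WT and 1.44, 0.83, 1.22, 1.68 and 0.90% in Sud_MUT, and a single pair of mice overlapped. It fell by 1.56 points (SE 0.43, FDR 6.57e-15). Exon 5 fell by 2.47 points, from 9.47 ± 1.13% to 7.00 ± 0.96% (SD, FDR 5.58e-08). Exon 6 was 3.86, 3.90, 4.53, 4.82 and 5.00% in Veh_WT and 2.52, 2.66, 2.66, 2.60 and 2.42% in Sud_MUT, without overlap, and it fell by 1.85 points (SE 0.24, FDR 5.36e-11). Exon 7 differed by -0.90 points (SE 1.57, FDR 0.567). The calls made up 3 of 30 Ptprc exons, against 4.77% of all exons.

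Exact permutation tests over the mice gave p = 0.0159 for exons 4 and 5 and 0.00794 for exon 6. With each exon's own spread exon 6 stayed called (FDR 0.0157; limma 0.0135), and exons 4 and 5 did not (FDR 0.190 and 0.238), while in 1 model of all 20 mice all 3 calls were lost (FDR 0.156 to 0.186). Joining of exon 5 to exon 6 fell from 55.02 ± 8.75% to 37.7 ± 5.40% of the reads leaving exon 5 (SD, FDR 1.97e-06; own spread 0.203), and joining of exon 5 to exon 7 rose by 16.1 points (FDR 1.39e-05; own spread 0.233). Exon 3 to exon 4 fell by 1.32 points (FDR 5.39e-07; own spread 0.217) and exon 3 to exon 8 rose by 2.24 points (FDR 0.0655; own spread 0.271), a call lost without Veh_WT replicate 2 or 3 or Sud_MUT replicate 2, 6 or 12 (1.41 to 2.83 points over all refits). Of the reads entering exon 5, the part that came through exon 4 fell by 11.3 points, from 29.97 ± 6.77% to 18.6 ± 4.49% (SD, FDR 0.000174; own spread 0.275). These belonged to 4 of 53 junctions called by 5′ site and 3 of 52 by 3′ site, against 4.59% and 4.17% of all junctions.

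Between the genotypes under vehicle, exon 7 was included more in Veh_MUT, with means of 83.5 ± 3.35% and 88.5 ± 1.29% (SD, n = 5). The difference was 4.99 points (SE 1.60), and only Veh_WT replicate 2, at 88.0%, reached the Veh_MUT range. It was not called (FDR 0.217 by edgeR, 0.292 with its own spread; exact permutation p = 0.0238), although it was called in 10 of 10 refits that left out a mouse, with differences from 4.06 to 6.12 points. Exons 4, 5 and 6 differed by -1.04, -1.30 and -0.49 points, with FDR 0.402, 0.306 and 0.681. None of the 30 exons tested was called, against 2.08% of all exons; 10 had an unadjusted p under 0.05 and limma called none. A single junction by 5′ site passed, exon 3 to exon 8, which fell from 15.8 ± 2.57% to 12.2 ± 1.55% (SD, FDR 0.0213; own spread 0.285), 1 of 62 tested against 2.66% of all junctions. By 3′ site 2 of 56 passed, against 1.83%: of the reads entering exon 5, those from exon 4 fell by 9.03 points and those from exon 3 rose by 9.10 points (FDR 0.078 and 0.0749; own spread 0.288 for both). The fall of the part from exon 4 was not called without Veh_WT replicate 5 or Veh_MUT replicate 5 or 7 (-10.9 to -6.67 points over all refits), and exon 3 to exon 7, not called with all mice, was called in 10 of 10 refits (3.71 to 5.88 points).

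Under sudemycin D6 no exon was called between the genotypes, and 8 tests of junctions were. The mean Ψ of exon 7 was 77.1 ± 4.63% in Sud_WT and 82.6 ± 1.07% in Sud_MUT (SD, n = 5), a difference of 5.50 points (FDR 0.362; exact permutation p = 0.0397). Exons 4, 5 and 6 differed by -1.70, -2.86 and -1.29 points (FDR 0.311, 0.221 and 0.431; exact permutation p = 0.0476, 0.0238 and 0.0317). None of the 20 exons tested was called, against 2.34% of all exons; 7 had an unadjusted p under 0.05, and limma called none. As under vehicle, refits without a mouse could cross the threshold, in 10 of 10 for exon 5, 9 of 10 for exon 6, 3 of 10 for exon 7 and 1 of 10 for exon 4.

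Among junctions, 6 of 51 by 5′ site were called, against 3.02% of all junctions. Of the reads leaving exon 5, those going to exon 6 fell by 12.3 points and those going to exon 7 rose by 12.6 points (FDR 0.0026 and 0.00146). Of the reads leaving exon 3, those going to exon 7 rose by 5.91 points (FDR 1.15e-07), while those going to exons 4, 5 and 8 fell by 1.59, 1.81 and 2.64 points (FDR 6.19e-08, 0.0312 and 0.0614). By 3′ site 2 of 50 were called, against 2.37%, again the 2 ways into exon 5, which moved by 9.13 points each in opposite directions (FDR 0.014). With their own spread none of these 8 passed (FDR 0.285 to 0.398). The call of exon 3 to exon 7 was lost in 10 of 10 refits that left out a mouse (4.28 to 7.56 points, FDR 0.101 to 0.647), that of exon 3 to exon 8 in 8 of 10, that is in all but those without Sud_WT replicate 8 or 9 (-4.04 to -1.68 points), and that of exon 3 to exon 5 without Sud_WT replicate 8 or 12 or Sud_MUT replicate 6 or 12 (-2.16 to -1.56 points). Exon 5 to exon 6 and exon 5 to exon 7 were not called without Sud_WT replicate 10 (-9.80 and 9.92 points), and exon 4 to exon 5 was not called without it or without Sud_MUT replicate 6 (-11.6 to -6.60 points over all refits). The 5 comparisons share groups of mice, so these values are given side by side and are not independent of one another.

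**Figure D4:**
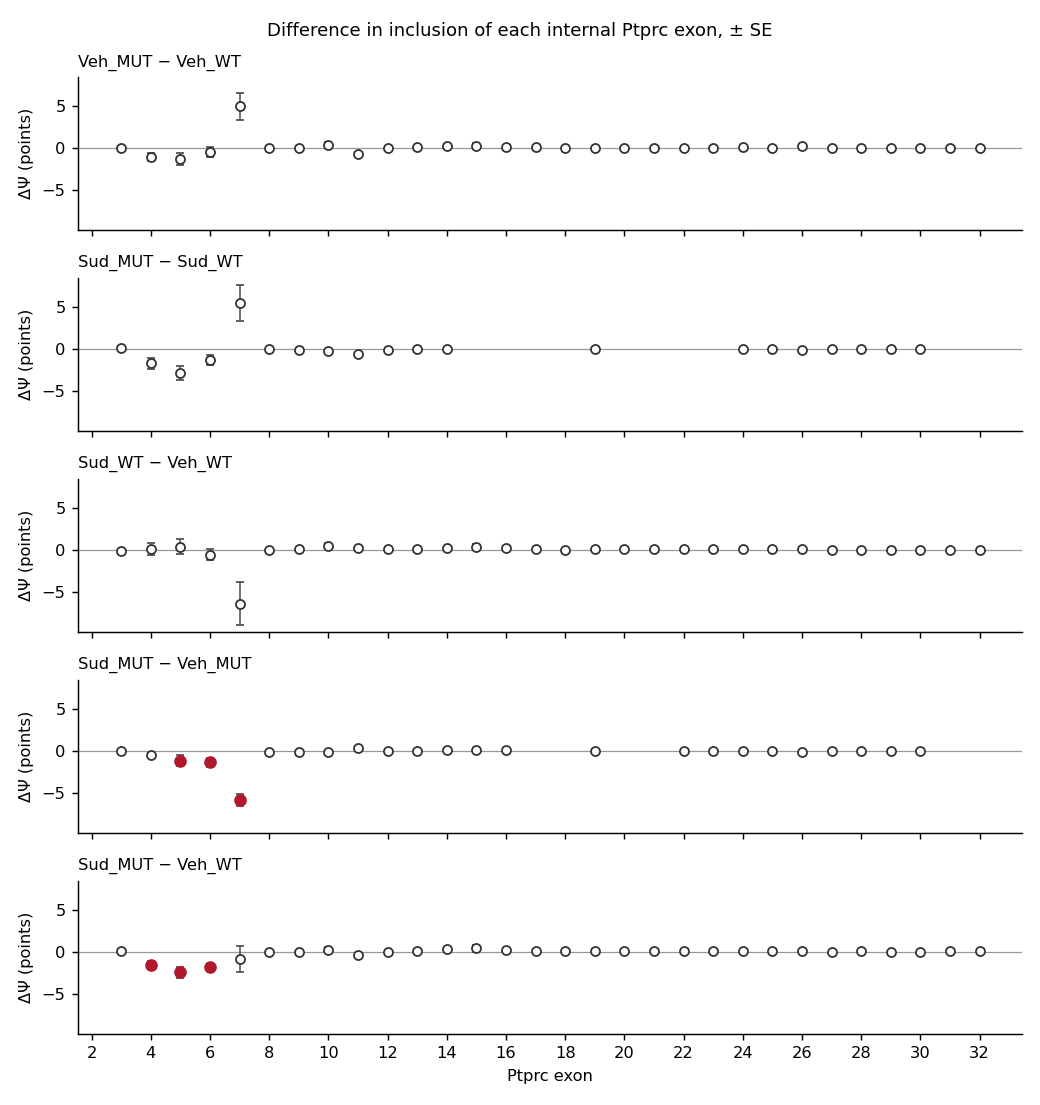
Difference in inclusion (ΔΨ in percentage points, ± SE) for each internal Ptprc exon tested, in exon order on the x axis and with a panel per comparison. Filled red points are called at FDR<10% and more than 1 point, open points are not, and an exon with no point was not tested; outside exons 4 to 7 all points lie near 0.

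Combining the choices at exons 3, 4, 5 and 6 as if each were independent of the one before gave the share of each of 8 isoforms. RO, counted here with exon 7 either kept or skipped, made up 89.9 ± 1.46% in Veh_WT, 89.1 ± 2.13% in Sud_WT, 90.9 ± 0.93% in Veh_MUT and 92.4 ± 0.95% in Sud_MUT (SD, n = 5). RB (exon 5 alone) was 3.50%, 4.19%, 4.07% and 4.15% in the same order, and RBC was 4.27%, 4.26%, 3.43% and 2.50%. RABC, the B220 form, was 1.18 ± 0.65%, 1.25 ± 0.79%, 0.55 ± 0.24% and 0.30 ± 0.14% (SD), and RAB was 0.86%, 1.11%, 0.66% and 0.47%. RA, RC and RAC each had group means of 0.262% or less. The lowest p were those of Sud_MUT against Veh_WT, where RBC was 1.77 points lower without overlap (exact permutation p = 0.00794) and RABC 0.89 points lower (exact permutation p = 0.0159), and neither passed adjustment over the 40 tests (adjusted exact permutation p = 0.212, the lowest of the 40).

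B cells keep exons 4 to 6, and transcripts of the B lineage varied between mice and groups. The summed level of 12 B lineage markers ranged from 51.5 to 163 CPM in Veh_WT, 28.2 to 188 in Sud_WT, 19.6 to 186 in Veh_MUT and 40.7 to 61.6 in Sud_MUT. In Sud_MUT against Veh_WT all 12 were called lower, among them Igll1, part of the surrogate light chain of B cell precursors (log2 fold change -2.85, SE 0.33), the recombinase gene Rag1 (-3.51, SE 0.49), the adaptor Blnk (-1.34, SE 0.22) and the lineage factor Pax5 (-1.74, SE 0.29). In Sud_MUT against Sud_WT 6 of the 11 tested were called lower, and in each of the drug comparisons 2 of 12. In Veh_MUT against Veh_WT none was called by edgeR or at an unadjusted p under 0.05. Of all genes, 25.1% were called lower in Sud_MUT against Veh_WT, 19.6% in Sud_MUT against Sud_WT and 19.8% in Veh_MUT against Veh_WT. The share was 5.85% in Sud_MUT against Veh_MUT and 1.89% in Sud_WT against Veh_WT. The median log2 fold changes of the list were -1.54, -0.99, -0.76 (Sud_MUT against Veh_MUT), -0.34 (Sud_WT against Veh_WT) and -0.76 (Veh_MUT against Veh_WT), with medians of all genes between -0.03 and 0.01. The defining marker Cd79a, part of the B cell receptor, averaged 5.62 CPM in Sud_MUT, the lowest of its group means.

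The mice fell into a lower cluster of 11, with B lineage sums of 19.6 to 61.6 CPM, and a higher cluster of 9, with 103 to 188 CPM. All 5 Sud_MUT mice lay in the lower cluster, together with 1 Veh_WT, 2 Sud_WT and 3 Veh_MUT mice. Exon 4 Ψ was 0.83% to 1.68% in the lower cluster and 1.53% to 4.38% in the higher one. Within Sud_WT, exon 4 was 1.67% and 1.23% in the 2 mice of the lower cluster and 3.47%, 3.84% and 4.38% in the others, while exon 7 was 82.4% and 81.5% against 75.5%, 74.4% and 71.8%. With group means removed, which keeps this difference between clusters, r over the 20 mice with the B lineage sum was 0.864 for exon 4 and -0.809 for exon 7, given as descriptions. Within the lower cluster exon 4 Ψ and the B lineage sum had r = 0.164 (rho = 0.409, permutation p = 0.635 and 0.213). Within the higher one r was 0.715 (rho = 0.667, exact permutation p = 0.0289 and 0.0589; adjusted 0.162 and 0.236 over 28 relations), and it was 0.214 without the 2 mice farthest from the median, so it rests on those mice. For exon 7, r was 0.0127 in the lower and -0.533 in the higher cluster (permutation p = 0.971, exact permutation p = 0.139).

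**Figure D5:**
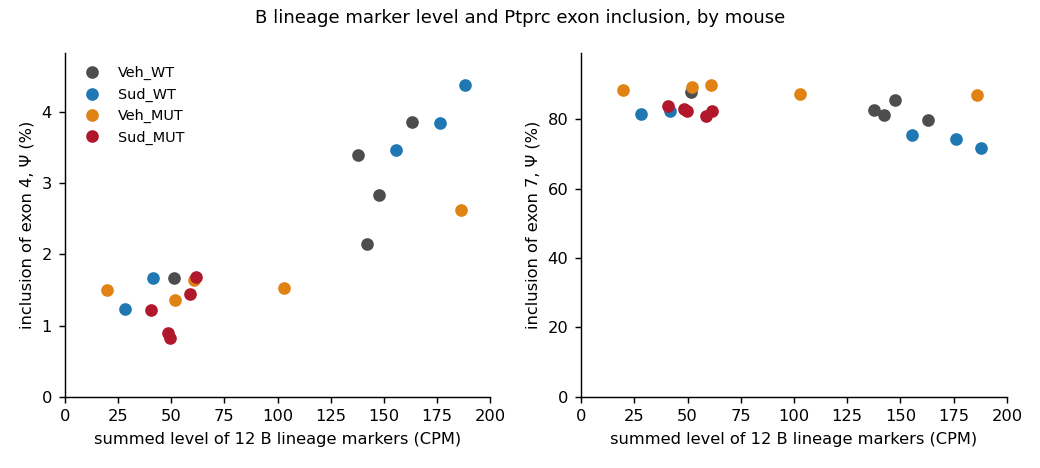
Inclusion of exon 4 (left) and exon 7 (right), Ψ in per cent, against the summed level of 12 B lineage markers in CPM, with a point for each mouse coloured by group. Mice with a sum of 61.6 CPM or less have exon 4 at 1.68% or less, and the 3 Sud_WT mice with sums of 155 CPM or more have the lowest exon 7 values.

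Neutrophils, the most abundant cells of marrow, skip the variable exons, and 5 of their 12 markers were called higher in Veh_MUT against Veh_WT and in Sud_MUT against Veh_WT, 3 in Sud_MUT against Sud_WT and none in either drug comparison (1 at an unadjusted p under 0.05 in each). Of all genes, 19.7%, 25.1% and 17.2% were called higher in the first 3 of these. S100a8, a calcium-binding protein of neutrophils, rose by 1.26 (SE 0.20), 1.21 (SE 0.20) and 0.99 (SE 0.25) on the log2 scale in these 3 in turn. The list as a whole moved less, with median log2 fold changes of 0.29, 0.18 and 0.05 and 7, 7 and 9 of 12 markers not called. The summed level of the list in single mice ranged from 59950 CPM, in Sud_WT replicate 10, to 142115 CPM, in Veh_MUT replicate 7. In the higher B lineage cluster, exon 7 Ψ had r = 0.839 and rho = 0.95 with this sum (exact permutation p = 0.0019 and 0.000353, adjusted 0.0446 and 0.00988; r = 0.907 without the 2 farthest mice) and exon 4 Ψ had r = -0.819 and rho = -0.833 (exact permutation p = 0.00583 and 0.00827, adjusted 0.0446 and 0.0772; r = -0.662 without them). In the lower cluster r was 0.19 and -0.471 (permutation p = 0.576 and 0.145). On the neutrophil sum the 3 Sud_WT mice of the higher cluster lay at 59950 to 65991 CPM and its 4 Veh_WT mice at 65844 to 72194 CPM. Its 2 Veh_MUT mice lay at 84692 and 94705 CPM. Sud_WT and Veh_WT overlapped there in a single pair of mice. Exon 7 Ψ was 71.8% to 75.5%, 79.8% to 85.7% and 87.2% to 87.3% in the same order, without overlap, whereas exon 4 Ψ overlapped between groups. In these 9 mice the relations largely follow the groups, and the 2 cannot be fully told apart. With group means removed, r over the 20 mice was 0.466 for exon 7 and -0.586 for exon 4. Of the 28 relations, exon 7 in the lower cluster also passed adjustment with plasma cell markers (r = 0.713, rho = 0.855, adjusted permutation p = 0.0446 and 0.0235; r = 0.428 without the 2 farthest mice) and, by r alone, with megakaryocyte markers (r = 0.82, rho = 0.736, adjusted permutation p = 0.0446 and 0.0855; r = 0.795 without them). With group means removed, r over the 20 mice was -0.334 for the plasma cell list and -0.24 for the megakaryocyte list, opposite in sign. Exon 7 in the lower cluster was 88.5% to 90.1% in the 3 Veh_MUT mice and 81.0% to 83.9% in the 5 Sud_MUT mice. These relations and the groups therefore cannot be told apart there. Other marker lists gave these counts of calls, higher and lower: in Sud_MUT against Veh_WT 1 and 7 of 10 T and NK cell genes, 1 and 3 of 10 monocyte genes, 1 and 4 of 6 plasma cell genes, 0 and 3 of 8 erythroid genes and 0 and 5 of 6 megakaryocyte genes, where 25.1% of all genes were called in each direction. In Sud_MUT against Veh_MUT the calls were 0 and 2, 0 and 0 (2 at an unadjusted p under 0.05), 0 and 1, 0 and 1, and 0 and 2 of the same lists. Of all genes, 4.94% were called higher and 5.85% lower in that comparison. In Sud_WT against Veh_WT only 1 monocyte gene was called, lower, of all these lists, with 5 monocyte genes and 1 megakaryocyte gene at an unadjusted p under 0.05. There 1.18% of all genes were called higher and 1.89% lower. The part of cell composition in the exon and junction values above was not tested.

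Of 17 known or candidate regulators of CD45 splicing, 5 were called higher and 6 lower in Veh_MUT against Veh_WT, 3 and 3 in Sud_MUT against Sud_WT, 7 and 4 in Sud_MUT against Veh_WT, 2 and 0 in Sud_MUT against Veh_MUT, and none in Sud_WT against Veh_WT (2 at an unadjusted p under 0.05). All genes called higher and lower were 19.7% and 19.8%, 17.2% and 19.6%, 25.1% and 25.1%, 4.94% and 5.85%, and 1.18% and 1.89% in these comparisons in turn. The medians of the list lay between -0.04 and 0.11. Hnrnpll, the silencer of the variable exons in activated T cells, was 69.3 ± 2.25 CPM in Veh_WT and 78.9 ± 2.65 CPM in Veh_MUT (SD) and rose by 0.17 on the log2 scale (SE 0.06, FDR 0.0481). It rose by 0.19 in Sud_MUT against Veh_WT (SE 0.06, FDR 0.0194), and it was not called in the other comparisons. Hnrnpl was called in none, with log2 fold changes between -0.05 and 0.15. Sfpq, a partner of the silencing complex, fell by 0.46 (SE 0.09, FDR 0.00279) in Veh_MUT against Veh_WT and by 0.42 (SE 0.11, FDR 0.00695) in Sud_MUT against Veh_WT.

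U2af1 was 36.1 ± 1.39 CPM in Veh_WT, 42.1 ± 3.73 in Sud_WT, 51.1 ± 2.98 in Veh_MUT and 55.2 ± 3.26 in Sud_MUT (SD). It rose by 0.48 between the genotypes under vehicle and by 0.35 under the drug (log2, SE 0.07 for both), and how reads of the transgene were counted is not given in the sources used here. Its partner U2af2 fell by 0.35 and 0.38 in these comparisons (SE 0.08 and 0.06). With the drug in mutant mice the calls were Pcbp2, a poly(C)-binding protein (0.46, SE 0.11), and Ptbp1, the polypyrimidine tract-binding protein (0.23, SE 0.07). No regulator was called in the interaction (1 of 17 at an unadjusted p under 0.05).

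The genes CD45 acts with were given in the same way. Of 8 Src family kinases, its substrates, 1 rose and 1 fell in Veh_MUT against Veh_WT, 3 fell in Sud_MUT against Sud_WT, 1 fell in Sud_MUT against Veh_MUT, and 2 rose and 4 fell in Sud_MUT against Veh_WT. Of all genes, 19.7% were called higher and 19.8% lower in the first of these, 19.6% lower in the second, 5.85% lower in the third and 25.1% in each direction in the last, so 1 and 1 of 8 lies at or under the share of all genes. Lck, the kinase of T cells, fell by 0.70 in Sud_MUT against Veh_MUT (SE 0.20, FDR 0.062) and by 0.99 against Sud_WT (SE 0.23), to 4.95 ± 0.68 CPM (SD), and Blk, the kinase of B cells, fell by 1.63 in Sud_MUT against Veh_WT (SE 0.34). Of the 4 Janus kinases, 1 rose and 2 fell in Veh_MUT against Veh_WT, and 1 fell in Sud_MUT against Sud_WT. In Sud_MUT against Veh_MUT 1 rose, and in Sud_MUT against Veh_WT 1 rose and 1 fell. All genes called higher and lower were 19.7% and 19.8%, 17.2% and 19.6%, 4.94% and 5.85%, and 25.1% and 25.1% in turn. Jak3 was 40.4 ± 8.35 CPM in Veh_WT, 51.2 ± 9.14 in Sud_WT, 23.1 ± 3.10 in Veh_MUT and 33.1 ± 3.06 in Sud_MUT (SD). It fell by 0.82 between genotypes under vehicle (SE 0.13) and rose by 0.51 with the drug in mutant mice (SE 0.09, FDR 0.00825).

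Of 5 associated proteins and ligands, 1 fell in Veh_MUT against Veh_WT, 1 rose and 3 fell in Sud_MUT against Sud_WT, and 2 rose and 3 fell in Sud_MUT against Veh_WT. Against 19.8% of all genes called lower in the first comparison, 1 of 5 lies near the share of all genes, and in the second 17.2% of all genes were called higher and 19.6% lower. In the last, 25.1% of all genes were called in each direction. Ptprcap, which associates with CD45 in lymphocytes, fell by 0.97 in Sud_MUT against Sud_WT (SE 0.21) and by 0.87 against Veh_WT (SE 0.15), and Cd22, a B cell lectin that binds CD45, fell by 1.67 (SE 0.48) and 1.40 (SE 0.31). Lgals1, encoding galectin-1, rose by 1.09 in Sud_MUT against Sud_WT (SE 0.16). Of 5 genes that oppose or parallel CD45, 3 were lower in Veh_MUT against Veh_WT and 2 in each of Sud_MUT against Sud_WT and against Veh_WT. Of all genes, 19.8%, 19.6% and 25.1% were called lower in these comparisons in turn. Among those lower was Csk, the kinase that adds the phosphate CD45 removes (-0.45, -0.42 and -0.34 in that order, SE 0.08, 0.07 and 0.08). In Sud_WT against Veh_WT no member of these 4 groups was called by edgeR, with 1 Src family kinase and 1 Janus kinase at an unadjusted p under 0.05. No member was called in the interaction, with 2 Src family kinases at an unadjusted p under 0.05.

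The genes whose levels most resembled that of Ptprc over the 20 mice, by Pearson's r of log2 CPM among 8387 genes, were Tbc1d23 (r = 0.93), Usp53 (r = 0.93), Ipcef1 (r = 0.92), Abi1 (r = 0.905) and Lims1 (r = 0.904). With group means removed, r was 0.925, 0.930, 0.951, 0.871 and 0.859. The exons whose Ψ most resembled that of Ptprc exon 4, among 13528 exons, lay in Dnajb6 (r = 0.844), Klra2 (r = 0.823), Cux1 (r = 0.817), Rbm34 (r = 0.795) and Dpy19l4 (r = 0.789). These are descriptions over the same mice, whose values share each mouse's library and cell composition.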

How the data were processed

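Stranded libraries of ribo-depleted RNA were mapped to mm9 with TopHat2 2.0.8 per the submitters' processing notes. The authors deposited whole-number counts per gene and counts per splice junction for each of 20 mice, without pooling or normalisation. The program that counted reads is not given in the sources used here. Splice sites and sequences came from the mm9 genome and annotation provided.

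Gene counts were tested in edgeR 4.0.16 (R 4.3.3; filterByExpr, TMM, robust quasi-likelihood fit) in each comparison on its own 10 mice. Exons were tested as inclusion against skipping reads, and junctions against those sharing a splice site, with 1 coefficient per mouse and the dispersion set to 0, over all exons or junctions with a mean of at least 10 reads, adjusted by Benjamini and Hochberg. The scripts were tested on data with known changes. Alternatives were DESeq2 1.42.0, limma 3.58.1, other filters, flanks and spreads, exact permutation over mice and leaving out each mouse, of which own spread, exact permutation, flanks 3 and 8 and FDR<5% for junctions were chosen after seeing the data. The gene, its lists and the form of the test with dispersion 0 were chosen with earlier results of these data known. Named were Ptprc, exons 3 to 7 and any other called Ptprc feature, fixed regulators, up to 4 called members of a list with the lowest p, and the 5 most alike genes and exons. Mice with the same number in the labels correlated from -0.269 to 0.527, so numbers were not treated as pairs. The labels do not say that replicates are litter mates or batches, and p-values refer to these mice alone. All tests treated each recipient as independent, although recipients of a genotype may share a donor pool. The edgeR p-values of exons and junctions usually rest in large part on a quasi-dispersion shared over all features. They then do not measure a feature's own spread between mice. For exon 4 in Sud_MUT against Veh_WT edgeR used 3.89 where its own was 18.1.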

Additional observations from a re-analysis of the deposited data

Results flagged for a closer look

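Of 75 group values examined for a mouse that stands far from its group (5 mice each, where chance marks about 1 in 20), 8 were marked. In Sud_WT, replicate 9 had a Ptprc level of 1559 CPM against a group median of 1219 CPM, an RBC share of 2.50% against 4.67% and an RC share of 0.315% against a median of 0. Replicate 10 of the same group had an RB share of 3.15% against a median of 4.40%, and replicate 12 an RAC share of 0.0227% where the other 4 mice were at 0. That RAC share rests on 1 read joining exon 4 to exon 6. In Veh_MUT, replicate 3 had an exon 4 Ψ of 2.63% against a median of 1.53%, with a B lineage marker sum of 186 CPM, the highest of its group. In Sud_MUT, replicate 2 sent 19.7% of reads leaving exon 3 to exon 8 against a median of 17.8%, and had an RAC share of 0.0258% where the other 4 mice were at 0. This RAC share rests on 3 reads joining exon 4 to exon 6. With the other mice at 0, any read would be marked.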

How the results depend on the processing

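The log2 fold change of Ptprc stayed uncalled under every alternative run, and its sign turned only in the interaction, which ranged from -0.11 to 0.055 when each mouse was left out and was positive without Sud_WT replicate 9. The difference in points of exons 4 to 6 in Sud_MUT against Veh_WT (-1.56, -2.47 and -1.85) kept its size but lost its call under an estimated dispersion and in 1 model of 20 mice, and for exons 4 and 5 also with their own spread and in limma. In Sud_MUT against Veh_MUT the same held for exon 7 (-5.89) under an estimated dispersion and in 1 model, for exons 5 and 6 (-1.16 and -1.36) under these, their own spread and limma, and for exon 5 by exact permutation (-1.16). With unannotated junctions the differences were -1.16 and -1.36 and both calls were lost. An estimated dispersion called 0 exons in any comparison (2685 at an unadjusted p under 0.05 in Veh_MUT against Veh_WT). By exact permutation over mice alone, differences that edgeR did not call passed p of 0.05 in Sud_MUT against Sud_WT for exons 4 to 7 (-1.70, -2.86, -1.29 and 5.50) and in Veh_MUT against Veh_WT for exon 7 (4.99). Exon 7 between flanks 3 and 8 gave 5.68 and a call in Sud_MUT against Sud_WT.

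With inclusion set against the reads that join the neighbouring exons alone, exon 4 differed by -9.54 in Sud_MUT against Sud_WT (now called) and -1.47 in Sud_WT against Veh_WT (reversed), exon 5 by 0.38 in Veh_MUT against Veh_WT (reversed), -0.61 in Sud_MUT against Veh_MUT and -0.23 in Sud_MUT against Veh_WT (both no longer called), exon 6 by -7.97 in Sud_MUT against Sud_WT (now called), and exon 7 by -0.11 and 0.11 in Veh_MUT against Veh_WT and Sud_MUT against Veh_MUT (both reversed). Isoform shares estimated from the 3′ end reversed for RO in Veh_MUT against Veh_WT (-0.43) and in Sud_WT against Veh_WT (0.31), RB in Sud_MUT against Sud_WT (0.18), RBC in Veh_MUT against Veh_WT (0.44) and RABC in Sud_WT against Veh_WT (-0.15).

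Mice with the same number were not each other's best partner, so a replicate block has no support in the design and was fitted for the genotype comparisons alone, since the drug comparisons share no number and Sud_MUT and Veh_WT share 1. With the replicate block exon 7 differed by 4.74 under vehicle (FDR 0.00799 by edgeR) and 7.23 under the drug, exons 4, 5 and 6 by -2.07, -3.39 and -1.59 under the drug, all called, and exon 6 by 0.13 under vehicle (reversed). Joining of exon 3 to exon 5 (0.27) and exon 6 to exon 7 (0.57) under vehicle were also reversed. Junction calls lost under the block were exon 3 to 8 (-3.56, FDR 0.362 by edgeR) and exon 4 to 5 (-8.87, FDR 1) under vehicle, and exon 5 to 6 (-11.1, FDR 0.937), exon 5 to 7 (11.53, FDR 0.937), exon 3 to 5 (-1.83, FDR 0.746) and exon 4 to 5 (-12.2, FDR 0.176) under the drug. Entering exon 8, exon 3 to 8 gained a call under vehicle (-5.48) and the drug (-8.80). Over all exons the block called 131 under vehicle and 277 under the drug, against 1116 and 1253.

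Leaving out 1 mouse at a time gave these lowest and highest differences in points for exons and RO where a call or sign moved. In Veh_MUT against Veh_WT they were -1.32 and -0.78 for exon 4, -1.68 and -0.91 for exon 5, and 4.06 and 6.12 for exon 7. In Sud_MUT against Sud_WT they were -2.12 and -1.34 for exon 4, -3.43 and -2.46 for exon 5, -1.60 and -0.77 for exon 6, 4.16 and 6.82 for exon 7, and 2.67 and 4.08 for RO (adjusted exact permutation p = 0.0907, the only one under 10%, without Sud_WT replicate 9, which RAB, RBC, RABC and RC share). In Sud_WT against Veh_WT they were -0.23 and 0.56 for exon 4, -0.0092 and 0.97 for exon 5, -1.09 and -0.25 for exon 6 (called only without Sud_WT replicate 10), and -7.72 and -5.06 for exon 7. In Sud_MUT against Veh_MUT they were -1.51 and -0.81 for exon 5 and -1.71 and -0.93 for exon 6. Exon 7 ranged from -1.83 to 0.23 in Sud_MUT against Veh_WT and from -0.83 to 1.83 in the interaction. Among shares that were not called, the sign turned for exon 3 to 4 (-0.13 to 0.75), exon 5 to 7 (-0.53 to 6.23), exon 4 to 5 (-4.74 to 0.31), exon 6 to 7 (-1.07 to 0.21), RAC (-0.0071 to 0.0010), RBC (-0.26 to 0.43) and RABC (-0.16 to 0.34) in Sud_WT against Veh_WT. In Sud_MUT against Veh_WT it turned for exon 3 to 7 (-0.72 to 1.45), exon 3 to 8 entering exon 8 (-1.44 to 0.95), RC (-0.10 to 0.0041) and RAC (-0.0071 to 0.0016), in Veh_MUT against Veh_WT for exon 6 to 7 (-0.71 to 0.55), RA (-7.3e-05 to 0.067) and RC (-0.019 to 0.10), in Sud_MUT against Sud_WT for RA (-0.011 to 0.015), RB (-0.30 to 0.12) and RAC (-0.0045 to 0.0052), and in Sud_MUT against Veh_MUT for RB (-0.085 to 0.31). Junction calls lost in refits are given beside those calls. Those gained, besides exon 3 to 7 and exon 3 to 8 in the comparisons named there, were exon 3 to 8 entering exon 8 in 10 of 10 refits of Veh_MUT against Veh_WT (-7.18 to -4.79) and of Sud_WT against Veh_WT (5.47 to 8.33) and in 6 of 10 of Sud_MUT against Sud_WT (-8.54 to -5.68), exon 5 to 6 and exon 5 to 7 in 4 and 3 of 10 of Veh_MUT against Veh_WT, exon 6 to 7 in 2 of 10 of Sud_MUT against Sud_WT, and 1 refit each for exon 3 to 4 in Veh_MUT against Veh_WT, exon 3 to 5 in Sud_MUT against Veh_WT and exon 5 to 6 in Sud_MUT against Veh_MUT.

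Over all exons edgeR called 1116, 1253, 368, 810 and 2639 in the 5 comparisons in the order of the gene tests, against 103, 165, 34, 51 and 514 with own spread, 212, 185, 36, 88 and 636 in limma, and 863, 644, 560, 158 and 1208 in 1 model. Genes called numbered 453 in Sud_WT against Veh_WT (DESeq2 819, 1 model 1072) and 1588 in Sud_MUT against Veh_MUT (1 model 788), and 2 in the interaction (DESeq2 116). The cause of these changes was not tested. The prior degrees of freedom that edgeR shared across exons were infinite in Sud_MUT against Veh_MUT and against Veh_WT, and 87.3, 206 and 33.3 in the first 3 comparisons. The 78 to 334 inclusion reads of exon 4 limit its precision.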

Other observations

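Among the annotated junctions of Ptprc near its 3′ end, 1 that leaves exon 26 (intron chr1:139974293-139975023 by its flanking bases in mm9) was listed at 273 reads in Veh_MUT replicate 3 and 260 in Sud_MUT replicate 12, and at 0 in the other 18 mice. Another that leaves exon 29 (chr1:139966739-139967714) was listed at 56, 96, 60, 82 and 77 reads in 5 U2AF1(S34F) mice, namely Veh_MUT replicates 5 and 7 and Sud_MUT replicates 2, 9 and 12, and at 0 in the other 15. No separate test of this pattern was made. In the tests by shared 5′ site, reads of both junctions counted among those leaving exons 26 and 29. Whether a 0 means that no read crossed a junction or that it was not listed for that mouse is not given in the sources used here.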
